A study of Mus musculus with 21 samples.

Results

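The cecum of mice on a Western diet with 1.0% broccoli powder was compared with the cecum of mice on the same diet with 0.5% broccoli powder. The comparison used the 5 libraries labelled 1.0% and the 5 labelled 0.5%, 10 of the 21 cecum libraries of the study, and took in every gene measured. The mice were C57BL/6, a common inbred strain, and were 3 weeks old when the Total Western Diet began. They ate it for 6 weeks, and broccoli powder was then added for 3 more weeks. All mice ate the Western base diet, so both groups carry it, and no low-fat or chow group stands beside them. The other 11 libraries, 6 at 0% and 5 at 2.5%, entered the same model and served to estimate the spread and to place the levels. They also entered the gene filter, the scaling and the relations with the mitochondrial share over all 21 libraries. A comparison of 2.5% with 0% closes the text. Each library is 1 numbered animal in the labels. No cage and no hour of collection are named in the labels. The animals were numbered 31, 32, 36, 37 and 80 at 1.0% and 18, 20, 26, 76 and 77 at 0.5%, so that diet and the blocks of numbering below 70 cannot be told apart.

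The cecum is a blind sac between small intestine and colon in which microbes ferment what the small intestine did not absorb. Its lining holds absorptive colonocytes and mucus-making goblet cells above layers of immune cells, nerves and smooth muscle. Broccoli carries glucosinolates, which are broken down to indoles and isothiocyanates. Indole products bind the aryl hydrocarbon receptor, a ligand-activated transcription factor whose classic target is the enzyme gene Cyp1a1. Isothiocyanates such as sulforaphane free NRF2, a factor that turns on detoxifying and glutathione enzymes. The step between these doses shows how far such genes, and all others, differ within the broccoli diets.

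No gene separated the 2 diets at the threshold used for all genes. Of 15652 genes tested, edgeR's quasi-likelihood test called 0, or 0%, at a Benjamini-Hochberg adjusted p under 0.05, and the lowest adjusted p was 0.587. At an unadjusted p under 0.05, 1103 genes stood out, 7.05% of those tested, with 560 higher at 1.0% (3.58%) and 543 lower (3.47%). limma voom also called 0 genes. DESeq2 called 2, Arl4d and Trpv6, both at an adjusted p of 0.00779. The median gene had a log2 difference (1.0% minus 0.5%) of 0.01, and the middle 90% of genes, from the 5th to the 95th percentile, lay between -0.30 and 0.40. These differences depend on the scaling. With library totals in place of TMM the median of all genes shifted to 0.13, and the genes at an unadjusted p under 0.05 were 2098 higher and 67 lower, still with 0 called.

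The limit this places on the dose step can be stated gene by gene. The 95% confidence interval of the log2 difference lay wholly within 2-fold in either direction for 13772 genes (88%), and within 1.5-fold for 11221 genes (71.7%). The median standard error was 0.13 log2 units. For the remaining genes the interval reached past 2-fold, so a difference of that size was not outside it.

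**Figure D1:**
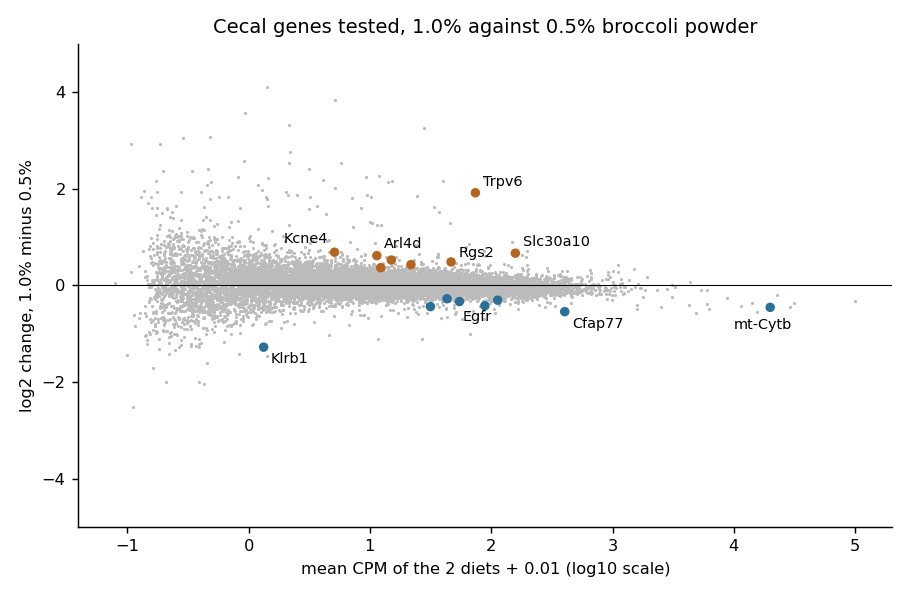
Each point is 1 of the 15652 genes tested: the horizontal axis is the log10 of the mean CPM of the 2 diets plus 0.01, and the vertical axis is the log2 difference, 1.0% minus 0.5%. Colored points are the 8 genes with the lowest p in each direction, orange higher and blue lower at 1.0%; none passed the adjusted threshold in edgeR's test, and Trpv6 at 1.92 stands farthest from 0 among them.

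Some facts of the libraries touch what follows. Total counts ran between 37327202 and 58594569 at 1.0%, against 35057688 to 50757142 at 0.5%. Defining genes of gut epithelium were present in all 10 libraries, with the 12 listed genes summing to between 6906 and 7943 CPM (counts scaled to a common library total) at 1.0% and between 6175 and 7717 CPM at 0.5%. One library stood apart: 1.0% replicate 1 held 398 CPM of the 13 Paneth cell genes, against 5.61 to 10.9 CPM in the other 1.0% libraries and 6.12 to 34.9 CPM at 0.5%. Paneth cells are defensin-secreting cells of the small intestine. That library also set the first principal component of the 10 libraries, 27.4% of their variance. In whole tissue, fewer cells of a type and less RNA per cell cannot be told apart.

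**Figure D2:**
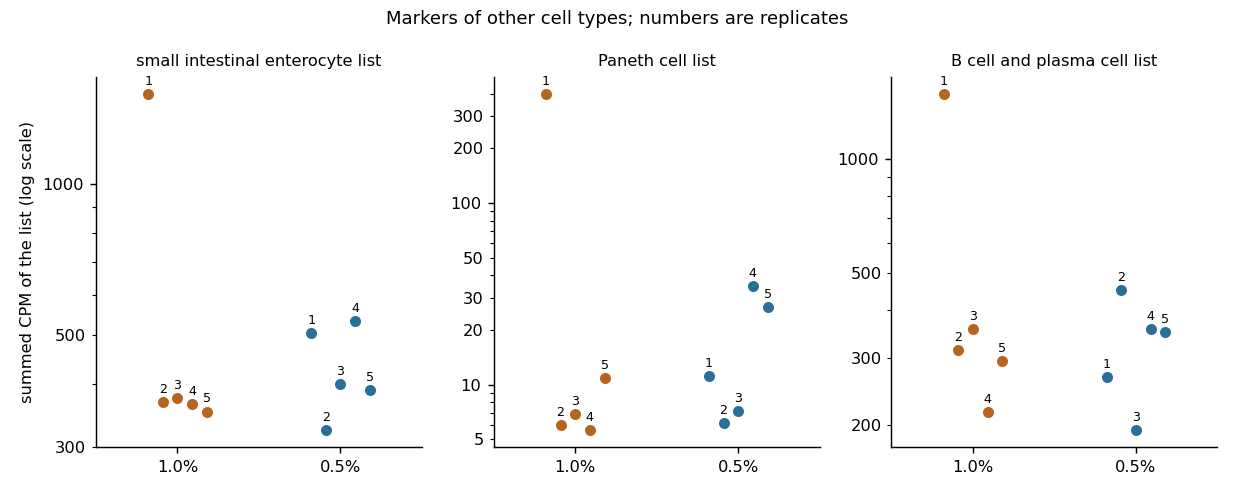
Summed CPM (log axis) of 3 marker lists in each of the 5 libraries at 1.0% (left, orange) and the 5 at 0.5% (right, blue), with the replicate number above each point. Replicate 1 at 1.0% is the highest point in all 3 panels, at 1510 CPM for small intestinal enterocyte genes, 398 CPM for Paneth cell genes and 1485 CPM for B cell and plasma cell genes.

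The genes with the lowest p that were higher at 1.0% were led by a small GTPase and a calcium channel. Arl4d encodes an ADP-ribosylation-factor-like GTPase that works at membranes (ENSMUSG00000034936, chr11:101665541-101667832, + strand, GRCm38). It had 12.2, 12.9, 13.5, 16.8 and 13.6 CPM in the 5 libraries at 1.0%, against 6.54, 8.23, 10.5, 10.1 and 9.51 CPM in the 5 at 0.5%. Every 1.0% library lay above every 0.5% library. The log2 difference was 0.62 ± 0.12 (SE, n = 5 each; 95% interval 0.36 to 0.87), with an unadjusted p of 3.75e-05 and an adjusted p of 0.587 in edgeR's test.

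Trpv6 encodes the calcium-selective channel through which gut epithelium takes up calcium from the lumen (ENSMUSG00000029868, chr6:41620624-41636405, - strand). Its level was 80.3, 136, 106, 100.3 and 163 CPM at 1.0%, against 28.4, 31.7, 40.5, 14.8 and 39.3 CPM at 0.5%. The lowest 1.0% library was still above the highest 0.5% library. The log2 difference was 1.92 ± 0.40 (95% interval 1.08 to 2.76), a fold of 3.78, with an edgeR adjusted p of 0.678. Across the 4 diets Trpv6 averaged 76.3 ± 33.3 CPM at 0%, 30.9 ± 10.3 CPM at 0.5%, 117 ± 32.5 CPM at 1.0% and 65.6 ± 37.6 CPM at 2.5% (SD). The 0.5% and 1.0% means were thus the ends of the range, and the 0% and 2.5% means lay between them.

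The paralog Trpv5, the next calcium channel gene along the chromosome (chr6:41652173-41680769, - strand), was scarce. It had 0.927, 1.79, 1.25, 0.940 and 1.38 CPM at 1.0%, against 0.310, 0.490, 0.526, 0.226 and 0.497 CPM at 0.5%, again with no overlap, for a log2 difference of 1.601 ± 0.46 (unadjusted p of 0.00192). Trpv5 and Trpv6 are close in sequence, and how reads shared by both were counted is not given in the sources used here, so the Trpv5 value is uncertain. Cyp24a1, the enzyme that breaks down active vitamin D, had 5.77, 34.7, 10.6, 20.5 and 9.06 CPM at 1.0% and 1.52, 9.04, 12.3, 3.83 and 6.71 CPM at 0.5%, with groups that overlapped and a log2 difference of 1.26 ± 0.61 (95% interval -0.04 to 2.55). Vdr, the vitamin D receptor, differed by -0.09 ± 0.10 and Atp2b1, a pump that moves calcium out of the cell, by 0.17 ± 0.09.

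A list of 16 calcium transport and vitamin D genes, put together after the Trpv6 value was seen, had 14 tested members. Of these 9 were above 0 and 5 below, where 52% of all genes were above 0, with a median of 0.20 against 0.01 over all genes. At an unadjusted p under 0.05, 3 were higher (Trpv6, Trpv5 and Slc30a10) and 0 lower, against 3.58% and 3.47% of all genes, and 0 were called. Since the list was built around Trpv6, its counts are a description only.

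The other genes in this direction had smaller differences than Trpv6. Slc30a10, a manganese exporter of gut and liver, had 180.4, 231, 214, 143 and 202 CPM at 1.0%, against 108, 119, 127, 108 and 148 CPM at 0.5%, where 1.0% replicate 4 fell within the range of the 0.5% diet. Its log2 difference was 0.67 ± 0.16. Rgs2, which shortens signalling by G-protein-coupled receptors, had 51.8, 56.3, 64.4, 51.1 and 48.3 CPM at 1.0%, against 37.8, 40.7, 36.6, 39.6 and 39.6 CPM at 0.5%. The groups did not overlap, and the log2 difference was 0.49 ± 0.12.

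Kcne4, a subunit that modifies potassium channels, had 5.13, 6.07, 8.66, 5.902 and 5.69 CPM at 1.0%, against 3.91, 3.92, 3.61, 4.08 and 4.01 CPM at 0.5%, with no overlap and a log2 difference of 0.69 ± 0.18. Its 5 libraries at 0.5% lay within 1 CPM of each other, while 1.0% replicate 3 stood above the other 4. Imp3, a protein of the complex that trims ribosomal RNA, differed by 0.43 ± 0.11, and Glrx3, a glutaredoxin that helps deliver iron-sulfur clusters, by 0.37 ± 0.10. Imp3 and Glrx3 also had no overlap between the diets. In edgeR's test the adjusted p was 0.678 for all of these genes.

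The genes with the lowest p in the other direction were led by Cfap77. The gene, named for a place in cilia and flagella, had 316, 336, 344, 326 and 320.2 CPM at 1.0%, against 643, 434, 532, 372 and 411 CPM at 0.5%. The 1.0% libraries were tightly grouped and all lay below the 0.5% libraries, which were spread widely. The log2 difference was -0.54 ± 0.13. In the annotation the gene spans a processed pseudogene on the same strand, Gm13394, and the part of its counts that could come from there was not tested.

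Egfr encodes the receptor of epidermal growth factor, a main growth signal of gut epithelium. It had 52.2, 46.4, 46.6, 50.8 and 45.6 CPM at 1.0%, against 64.2, 59.1, 66.9, 58.7 and 55.9 CPM at 0.5%, without overlap, and a log2 difference of -0.33 ± 0.09. Sema6d, a transmembrane semaphorin, had 99.9, 102, 111, 97.5 and 94.96 CPM at 1.0%, against 125, 127, 129, 127 and 117 CPM at 0.5%, also without overlap, and a log2 difference of -0.31 ± 0.08. Rexo2, an exonuclease that clears short RNAs in mitochondria, differed by -0.44 ± 0.11, and Fam210b, a mitochondrial membrane protein, by -0.28 ± 0.08. Both were lower in every 1.0% library than in any 0.5% library.

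Igf2bp2, an RNA-binding protein, differed by -0.42 ± 0.11, with 1.0% replicate 3 above 0.5% replicate 4. Klrb1, a lectin-like receptor of lymphocytes, was scarce, at 1.12, 0.652, 0.739, 0.522 and 0.808 CPM for 1.0%, against 1.55, 2.62, 0.846, 2.76 and 1.59 CPM for 0.5%. Its log2 difference was -1.28 ± 0.34, with overlap between the groups. Most of its list, T cell and innate lymphocyte genes, lay on the other side. Of 19 tested, 15 were above 0 and 4 below, with a median of 0.14, where 52% of all genes were above 0. edgeR's adjusted p was 0.678 for each of Egfr, Sema6d, Rexo2, Fam210b, Igf2bp2, Klrb1 and Cfap77. In the annotation Slc30a10, Kcne4, Egfr and Sema6d overlap non-coding genes on the opposite strand. The strand setting of the counts is not given, and the part of their counts from there was not tested.

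**Figure D3:**
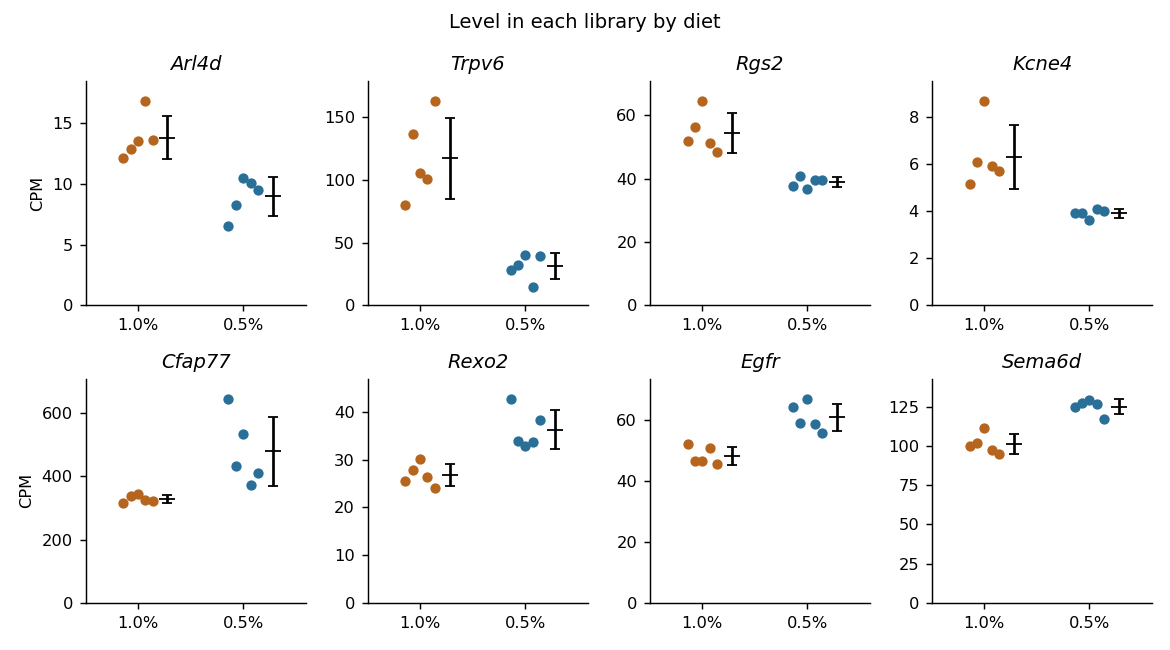
CPM in each library for 4 genes higher (top) and 4 lower (bottom) at 1.0%; orange points are the 5 libraries at 1.0% (left), blue points the 5 at 0.5% (right), and the bars show the mean ± SD. In each of the 8 panels the 1.0% and 0.5% points do not overlap, although none of these genes passed the adjusted threshold in edgeR's test.

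Of the 16 genes with the lowest p, 13 had libraries that did not overlap between the diets, against 286 (1.83%) of all genes tested, 139 wholly higher at 1.0% (0.888%) and 147 wholly lower (0.939%). The 16 were chosen for the difference itself, so nothing is read from that share. In the 8 higher genes the 0.5% mean was the lowest of the 4 diets in 8, and the 1.0% mean the highest in 4. In the 8 lower genes the 0.5% mean was the highest of 4 in 8, and the 1.0% mean the lowest in 7. The 2.5% mean lay between the 0.5% and 1.0% means in 15 of the 16, and the 0% mean in 12. Choosing genes for the gap between 1.0% and 0.5% itself favors this order.

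The promoter of Arl4d can be shown beside its values. The run below is the 120 bases just before the start of the gene, from RefSeq on GRCm38.p6, 5′ to 3′ on the gene's strand, with a full cyclic AMP response element in capitals. Such elements bind CREB, a factor switched on by cyclic AMP. Hlf, a clock output gene described next, carries the same 8 letters and is shown for comparison.
Arl4d, chr11:101665421-101665540, + strand: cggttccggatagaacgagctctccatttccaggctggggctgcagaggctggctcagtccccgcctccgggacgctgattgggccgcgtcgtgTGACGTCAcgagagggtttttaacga
Hlf, chr11:90390918-90391037, - strand: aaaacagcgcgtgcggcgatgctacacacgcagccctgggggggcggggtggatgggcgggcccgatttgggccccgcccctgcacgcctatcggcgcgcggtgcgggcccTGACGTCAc
The 8 letters TGACGTCA, which read the same on both strands, were found in 1.55% of 32851 RefSeq windows of 250 bases before a start. A match is a description of the letters, not evidence that a factor binds there.

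Among genes of the circadian clock, the output factors and most repressors lay above 0 and the activators below, without a call. In the clock, CLOCK or NPAS2 pairs with ARNTL (BMAL1) and drives the Per, Cry and Nr1d genes, whose products repress that pair or its genes, along with the output factors Dbp, Tef and Hlf. Levels therefore swing with the hour of the day in most tissues, gut included. Of 19 listed genes 18 were tested, and Per3 was listed at 0 in all 10 libraries. Of the 18, 12 were above 0 and 6 below, with a median log2 difference of 0.36 against 0.01 over all genes tested. At an unadjusted p under 0.05, 5 were higher and 3 lower, against 3.58% and 3.47% of all genes, and 0 were called.

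The output factors had the largest differences. Tef had 95.6, 87.7, 101, 58.2 and 79.7 CPM at 1.0%, against 52.3, 55.6, 26.2, 55.8 and 42.7 CPM at 0.5%, with every 1.0% library above every 0.5% library. The log2 difference was 0.86 ± 0.32. Hlf had 19.4, 20.3, 27.99, 18.8 and 16.8 CPM at 1.0%, against 14.5, 15.9, 7.95, 12.1 and 8.699 CPM at 0.5%, again with no overlap, and a log2 difference of 0.81 ± 0.30. Dbp had 23.3, 22, 23.4, 11.8 and 13.95 CPM at 1.0%, against 12.8, 15.02, 3.84, 11.2 and 5.64 CPM at 0.5%, where the groups overlapped, and a log2 difference of 0.96 ± 0.51 (95% interval -0.11 to 2.04). For Dbp, Tef and Hlf the lowest values at 0.5% came from replicates 3 and 5.

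Among the repressors, Per1 had 26.6, 20.2, 12.02, 19.5 and 19.1 CPM at 1.0%, against 11.6, 10.8, 16.7, 15.6 and 10.4 CPM at 0.5%, a log2 difference of 0.58 ± 0.22. Per2 differed by 0.39 ± 0.16 and Cry2 by 0.33 ± 0.15. Nr1d1 (REV-ERB alpha) was higher in every 1.0% library, at 77.8, 84.5, 70.1, 70.1 and 71.8 CPM, against 69.02, 57.9, 44.6, 69.96 and 28.8 CPM at 0.5%, but its log2 difference of 0.47 ± 0.34 had an interval of -0.24 to 1.18. Nr1d2 differed by 0.43 ± 0.21, Ciart, a repressor of the CLOCK pair, by 0.46 ± 0.24, and Bhlhe41, another repressor, by 0.68 ± 0.40. Each of these was positive. Bhlhe40, the paralog of Bhlhe41 and also a repressor, differed by -0.13 ± 0.12, below 0.

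The genes of the activating side lay on the other side of 0. Npas2 had 47.95, 51.9, 48.3, 49.6 and 61.2 CPM at 1.0%, against 81.9, 67.9, 85.7, 62.1 and 83.5 CPM at 0.5%, with all 1.0% libraries below all 0.5% libraries. Its log2 difference was -0.56 ± 0.17, the lowest p of the list at 0.00301, unadjusted. Clock had 195, 214, 208, 217 and 206 CPM at 1.0%, against 225, 225, 251, 220.1 and 228 CPM at 0.5%, a small difference of -0.14 ± 0.06 with no overlap. Arntl differed by -0.27 ± 0.14, Nfil3, a repressor that competes with the output factors, by -0.52 ± 0.26, and Cry1 by -0.55 ± 0.23. Cry1 is itself a repressor. Its transcript peaks later in the daily cycle than that of the other repressors, and whether this bears on its value was not tested.

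**Figure D4:**
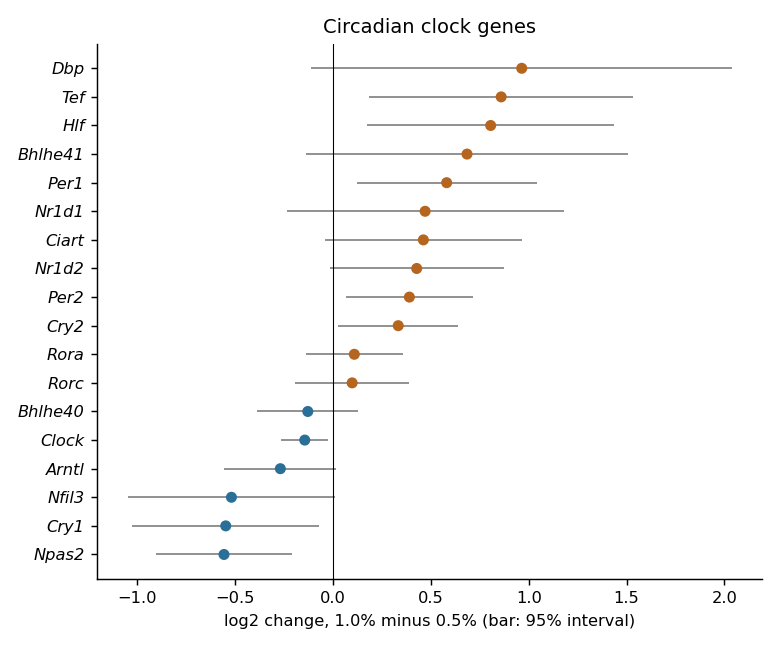
Log2 difference, 1.0% minus 0.5%, of the 18 clock genes tested, with 95% confidence intervals as bars, sorted by value; orange points lie above 0 and blue points below. Dbp, Tef and Hlf are at the top, and Npas2, Cry1 and Nfil3 at the bottom; the intervals of 8 genes leave out 0, and none of the 18 passed the adjusted threshold.

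The direction of all 18 clock genes as 12 positive and 6 negative was the same in number under each of the 25 other settings tried. The number at an unadjusted p under 0.05 was less steady. It was 3 higher and 1 lower without 0.5% replicate 3, and 4 higher and 1 lower without 1.0% replicate 1. It was 3 higher and 3 lower without 1.0% replicate 3, and 2 higher and 3 lower without the 3 animals numbered above 70. The share of all genes at that threshold, in either direction, also moved. It was 4.97, 6.98, 6.33 and 7.95% in these settings, in that order, against 7.05% with all libraries. Whether the hour of collection differed between the diets was not tested, because the labels used here give no hour.

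The CLOCK pair binds E-boxes, of which the strict form CACGTG is shown in capitals in the 120 bases before the start of Ciart, on the positive side of the list, and Cry1, on the negative side (RefSeq, GRCm38.p6, 5′ to 3′).
Ciart, chr3:95882229-95882348, - strand: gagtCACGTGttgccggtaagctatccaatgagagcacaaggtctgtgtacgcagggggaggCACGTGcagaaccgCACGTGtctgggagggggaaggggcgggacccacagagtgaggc
Cry1, chr10:85185055-85185174, - strand: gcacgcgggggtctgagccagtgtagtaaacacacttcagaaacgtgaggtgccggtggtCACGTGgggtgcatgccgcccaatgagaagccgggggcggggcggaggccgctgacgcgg
Windows of 250 bases were found for 16 of the 19 listed clock genes, and 5 held CACGTG in at least 1 window (Ciart, Cry1, Per1, Tef and Bhlhe41), against 6.86% of the 27025 genes with a window. Of these 5, 4 were on the positive side and Cry1 on the negative side, where 12 of all 18 tested clock genes were positive. Nothing is read from that split.

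Transcripts of the mitochondrial genome took a smaller share of counts on average at 1.0%. Their share was 23.1, 23.4, 24.7, 26.6 and 22.1% in the 5 libraries at 1.0%, against 29.6, 28.8, 31.8, 26.2 and 25.7% in the 5 at 0.5%. The groups overlapped by 1.0% replicate 4 alone, which lay above 0.5% replicates 4 and 5. The means were 23.99% ± 1.73 at 1.0% and 28.4% ± 2.54 at 0.5% (SD, n = 5 each), a difference of -4.45 percentage points. The two-sided exact permutation test of that difference gave p = 0.0238, or 0.0952 adjusted over the 4 library measures tested, which does not pass. The 0% diet averaged 26.03% ± 2.43 and the 2.5% diet 26.5% ± 2.73, between the 2 diets compared.

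Of the 13 proteins the mitochondrial genome encodes, all subunits of the respiratory chain or ATP synthase, 12 were below 0 and 1 above, with a median log2 difference of -0.41. At an unadjusted p under 0.05, 11 were lower, against 3.47% of all genes, and 0 were called. mt-Cytb, the cytochrome b of complex III, had 17455, 15219.5, 17386, 18891 and 15090.1 CPM at 1.0%, against 24913, 21899.6, 28943, 20034 and 19404 CPM at 0.5%, with no overlap and a log2 difference of -0.45 ± 0.12. mt-Nd4 differed by -0.55 ± 0.16 and mt-Nd2 by -0.48 ± 0.14, both subunits of complex I. mt-Nd3, another subunit of complex I, differed by 0.00 ± 0.08. The transcripts share 1 genome and long precursors, so the 13 are not independent. Without 0.5% replicate 3, the library with the highest share, 7 of the 13 were lower at that threshold. In that setting 4.97% of all genes were at it in either direction, against 7.05% with all libraries.

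Of 13 tested nuclear genes of the respiratory chain, 12 were above 0 and 1 below, with a median of 0.13. Of the 13, 2 were higher at an unadjusted p under 0.05, against 3.58% of all genes, and 0 lower. Cyc1, of complex III, differed by 0.36 ± 0.14, and Atp5b, of ATP synthase, by 0.32 ± 0.12. Among 80 tested genes of cytosolic ribosomal proteins, a list added after the values were seen, 59 were above 0 and 21 below, with a median of 0.11. At an unadjusted p under 0.05, 17 were higher and 3 lower, against 3.58% and 3.47% of all genes, and 0 were called. In a fit with the mitochondrial share as a covariate, 1 was higher and 1 lower. All genes at that threshold, in either direction, were 3.49% in that fit and 7.05% in the main one. With the covariate 49 of the 80 were above 0 and 31 below, with a median of 0.02. Without 1.0% replicate 5, 6 were higher and 5 lower, against 6.05% of all genes in either direction. Without 0.5% replicate 1, 10 were higher and 0 lower, against 4.89% of all genes. These genes have many near-identical pseudogenes, so their counts are uncertain.

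**Figure D5:**
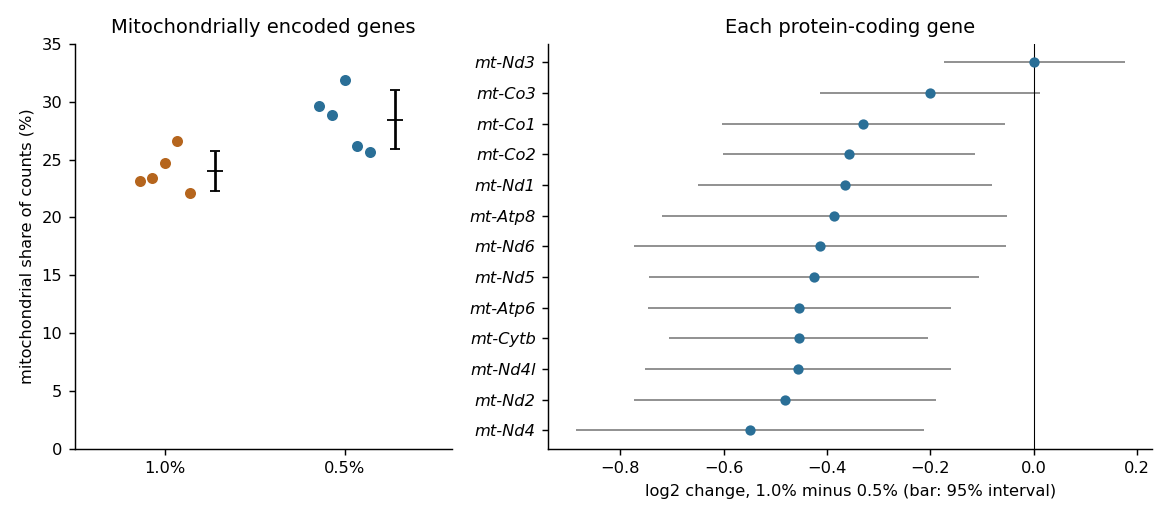
Left, the percentage of all counts on mitochondrially encoded genes in the 5 libraries at 1.0% (orange) and the 5 at 0.5% (blue), with mean ± SD. Right, the log2 difference, 1.0% minus 0.5%, of each of the 13 mitochondrially encoded proteins with its 95% interval; 12 points lie below 0 and mt-Nd3 lies at 0.00.

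The mitochondrial share, which also varies with RNA quality and tissue makeup, moved with most of the 16 genes over all 21 libraries. The part of RNA quality or tissue makeup in the diet difference was not tested. For Pearson's r, all but Arl4d, Kcne4, Glrx3 and Klrb1 had an adjusted permutation p under 0.05. The relation was computed for these 16 genes only, so the share of all genes that would pass is not known. After centring each diet on its mean, r was 0.23 for Egfr, 0.25 for Sema6d, 0.28 for Igf2bp2 and -0.25 for Rgs2. It was -0.40 for Klrb1, against 0.14 before centring, and 0.90 for mt-Cytb. Among the 16, mt-Cytb is itself part of the share. For Cfap77 Pearson's r with the share was 0.72 and Spearman's rho 0.71 (permutation p of 0.00019 and 0.00045, adjusted over 16 relations 0.00152 and 0.0018). Without the 2 libraries farthest from the median share r was 0.73, and after centring each diet on its mean it was 0.57. For Imp3 r was -0.65 and rho -0.66 (permutation p of 0.00134 and 0.00171, adjusted 0.00429 and 0.00547), with -0.61 without the 2 farthest libraries and -0.46 after centring. For Arl4d r was -0.40 and rho -0.37 (permutation p of 0.072 and 0.101, adjusted 0.0768 and 0.108), -0.33 without the 2 farthest and -0.08 after centring. For Trpv6 r was -0.50 and rho -0.48 (permutation p of 0.0214 and 0.0285, adjusted 0.0311 and 0.0404), -0.43 without the 2 farthest and -0.13 after centring. Both the genes and the share differed between these diets to begin with, so the pooled values are partly set by the choice of genes.

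A fit with the mitochondrial share as a covariate, added after the data were seen, left 546 genes (3.49%) at an unadjusted p under 0.05 and called 0. In it the log2 difference was 0.58 for Arl4d, 1.84 for Trpv6 and -1.70 for Klrb1, but -0.28 for Cfap77 and 0.27 for Imp3. Of the clock genes, 1 was higher and 1 lower at that threshold, still with 12 above and 6 below 0.

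None of the genes best known as targets of broccoli compounds was called between the doses. Of 9 genes of the aryl hydrocarbon receptor list 7 were tested, with 4 above 0, 3 below (52% of all genes were above 0), 0 at an unadjusted p under 0.05 and a median of 0.09. The split turned on single libraries: 2 were above 0 and 5 below without 1.0% replicate 1 (median -0.05), and 3 above and 4 below without 0.5% replicate 5. With the mitochondrial share as a covariate 3 were above and 4 below, and scaled by library totals all 7 were above 0. Cyp1a1, the main target, had 1.43, 2.21, 0.507, 2.09 and 4.34 CPM at 1.0%, against 1.43, 0.735, 1.23, 0.626 and 0.874 CPM at 0.5%. The diets overlapped, and 1.0% replicate 3 was the lowest of all 10 libraries while 1.0% replicate 5 was the highest. The log2 difference was 1.12 ± 0.62, with an interval of -0.18 to 2.42 that holds both 0 and a 4-fold difference. It was 0.67 without 1.0% replicate 5 and 0.46 without the 3 animals numbered above 70. Ahrr, the receptor's repressor, differed by 0.09 ± 0.21 (95% interval -0.33 to 0.51), Cyp1b1 by 0.38 ± 0.64 and Tiparp, a feedback enzyme, by -0.11 ± 0.13.

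Of 31 tested NRF2 and glutathione genes, 20 were above 0 and 11 below, with a median of 0.05. Of the 31, 2 were higher and 1 lower at an unadjusted p under 0.05, against 3.58% and 3.47% of all genes. Without 1.0% replicate 5, 15 were above 0 and 16 below. At that threshold 0 were higher and 2 lower, against 6.05% of all genes in either direction. Without the 3 animals numbered above 70, 12 were above and 19 below, with 1 higher and 4 lower, against 7.95% of all genes. Scaled by library totals, 28 were above and 3 below. With all libraries, the higher ones were the glutathione transferases Gsta3, at 0.38 ± 0.17, and Gsta4, at 0.33 ± 0.14. The lower one was Hmox1, the heme-degrading enzyme, with 2.76, 3.002, 3.27, 3.53 and 3.55 CPM at 1.0%, against 5.89, 3.55, 5.37, 3.58 and 3.75 CPM at 0.5%, a difference of -0.46 ± 0.20 and groups that met at 3.55 CPM without crossing. Nqo1, a quinone reductase and standard NRF2 readout, differed by 0.10 ± 0.11 (95% interval -0.13 to 0.33), so a 1.5-fold difference in either direction lay outside its interval. Gclc, the catalytic subunit of glutathione synthesis, differed by -0.19 ± 0.10, and Gsta1 by 0.29 ± 0.30.

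Of 34 tested xenobiotic enzymes and transporters, 15 were above 0 and 19 below, with a median of -0.04. At an unadjusted p under 0.05, 1 was higher and 4 lower, against 3.58% and 3.47% of all genes. Scaled by library totals, 25 were above 0 and 9 below. The 5, named after their values were seen, were Cyp4b1 at 0.64 ± 0.26, Cyp2d34 at -0.58 ± 0.23, Cyp2s1 at -0.30 ± 0.12, Cyp2d26 at -0.20 ± 0.09 and Nr1i3, the receptor CAR, at -1.11 ± 0.52. Cyp2c55, an abundant cytochrome of the large bowel, averaged 3254 ± 281 CPM at 1.0% and 3328 ± 358 CPM at 0.5% (SD, n = 5 each). Its difference of -0.03 ± 0.13 had an interval of -0.30 to 0.24. Cyp2c23 differed by 0.23 ± 0.23.

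Of the other genes followed across the diets of this study, none was called between the 2 doses. Edn3, a peptide of the endothelin family, averaged 32.03 ± 3.94 CPM at 1.0% and 35.4 ± 4.798 CPM at 0.5%, a difference of -0.14 ± 0.10. Pax8, a transcription factor of thyroid and kidney, differed by -0.22 ± 0.12, and Spp1, the secreted protein osteopontin, by 0.47 ± 0.28. Muc2, the main mucin of the gut, differed by -0.41 ± 0.40 and Tjp1, a tight junction scaffold, by -0.07 ± 0.08. For Tjp1 the interval was -0.23 to 0.09, for Spp1 -0.10 to 1.05 and for Muc2 -1.26 to 0.43, so that Muc2 is the least settled of the 3.

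Genes tied to small intestine or to antibody-making cells were highest in 1.0% replicate 1. Reg3g, an antimicrobial lectin of gut epithelium, had 96.95, 0, 0.127, 0.0783 and 0.776 CPM at 1.0%, against 6.98, 0.196, 0.594, 12.7 and 0.179 CPM at 0.5%. Its log2 difference was 2.26 ± 2.14 with all libraries and -3.84 without 1.0% replicate 1. Igha, the heavy chain of immunoglobulin A, had 543, 107, 123, 78.8 and 104 CPM at 1.0%, against 78.5, 141, 58.2, 118 and 119.7 CPM at 0.5%, and Jchain, which links its dimers, had 279, 70.3, 90.1, 46.5 and 58.5 CPM at 1.0%, against 48.6, 84.4, 37.9, 75.2 and 84.3 CPM at 0.5%. Their differences of 0.89 ± 0.45 and 0.72 ± 0.42 were -0.04 and -0.05 without the 6 libraries, of all 21, whose small intestinal markers averaged above 0 on the log2 CPM scale.

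The genes of MHC class II, which present antigen on immune cells and some epithelium, also varied with single libraries. Of 10 tested, 7 were above 0 and 3 below, with a median of 0.21. At an unadjusted p under 0.05, 3 were higher and 0 lower, against 3.58% and 3.47% of all genes. The 3 were H2-Aa at 0.45 ± 0.20, H2-Eb1 at 0.41 ± 0.16 and H2-DMb1 at 0.52 ± 0.21. H2-Aa had 25.9, 12.4, 12.7, 10.5 and 12.7 CPM at 1.0%, against 7.63, 14.8, 9.39, 11.1 and 11.2 CPM at 0.5%, with 1.0% replicate 1 the highest. Without 1.0% replicate 1, 0 of the 10 were at that threshold, against 6.98% of all genes in either direction, and the median was 0.12. The number was 1 without 0.5% replicate 1 (4.89% of all genes) and 1 without 0.5% replicate 3 (4.97%). Without the 6 libraries the median was -0.02.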

How the data were processed

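Cecum mRNA libraries were made with a strand-marking ligation kit, per the labels' protocols, and the authors deposited raw counts per gene for 21 libraries. The build is mm10, per the submitters' processing notes; which aligner, counter and strand setting were used is not given in the sources used here. Of 25361 identifiers, 25268 were named by GENCODE mouse release 21 (GRCm38); promoter sequences are from RefSeq.

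The test was the quasi-likelihood test of edgeR 4.0.16, run in R 4.3.3 (TMM scaling, filterByExpr, robust fit, 17 residual degrees of freedom) in 1 fit of all 21 libraries with a mean per diet, contrast 1.0% minus 0.5%, two-sided, with Benjamini-Hochberg adjustment over the 15652 genes kept. The scripts were tested on simulated data. Differences are log2 ± SE; CPM uses TMM-scaled totals and is not corrected for length. Alternatives used DESeq2 1.42.0, limma 3.58.1 and sva 3.50.0, other scalings and filters, covariates and left-out libraries.

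The genes named were the 8 protein-coding genes with the lowest p in each direction (mean of at least 1 CPM), up to 2 members of each list described, and 18 genes followed whatever their p; further names, such as the other members of the clock, calcium, mitochondrial and xenobiotic lists, were chosen after their values were seen. Among the genes with the lowest p, 1 is counted but not reported here. Members and lists were chosen with earlier results of these data known. Replicate numbers follow accession order and pair nothing; nothing says whether animals shared cages, so p-values measure the spread between these animals. Within each of the 2 diets compared, no pair of libraries agreed within sampling noise (lowest chi-square per degree of freedom 17.1). Other pairs were not checked.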

Additional observations from a re-analysis of the deposited data

Results flagged for a closer look

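Of 102 sets of 5 libraries of 1 diet examined, 13 held a library whose distance from its nearest neighbor took up more than 0.71 of the range of the 5, the 95% limit of Dixon's test. Chance marks about 1 in 20 sets. Of the 13, 9 were in 1.0% replicate 1.

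In 1.0% replicate 1 the high values were 96.95 CPM for Reg3g, 243 CPM for Lyz1 (Paneth cell lysozyme), 47.3 CPM for Defa24 (a Paneth cell defensin), 71.7 CPM for Fabp6 (ileal bile acid binding) and 323 CPM for Apoa1 (an apolipoprotein of small intestine). The mean of the small intestinal and Paneth cell markers was 4.21 on the log2 CPM scale in that library, where the next 1.0% library had -0.43. The same library had 543 CPM of Igha, 279 CPM of Jchain and 1973 CPM of Muc2. Whether tissue from the ileal end was taken with this cecum was not tested.

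At 0.5%, replicate 4 had 16.04 CPM of Lyz1 and 2.71 CPM of Defa24, and replicate 3 had 251 CPM of Clock. At 1.0%, replicate 3 had 8.66 CPM of Kcne4. Each of these 4 was the highest of its diet.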

How the results depend on the processing

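The count of genes called at an adjusted p under 0.05 was 0 under edgeR with other scalings, filters, covariates and samples and under limma voom; DESeq2 called 2, Arl4d and Trpv6. Leaving out each of the 10 libraries in turn gave 0 to 0 calls, 13488 to 13615 genes with a 95% interval within 2-fold, and a difference in mitochondrial share of -5.14 to -3.60 percentage points (exact permutation p between 0.0159 and 0.0476). Over all settings the count within 2-fold was 12907 to 14215, and the lowest adjusted p of any edgeR or limma fit was 0.124, with only the 10 libraries compared. Scaling by library totals moved the median of all genes to 0.13 on the log2 scale and gave 2098 genes higher and 67 lower at an unadjusted p under 0.05, against 560 and 543; 79.96% of genes were then positive. Of 1887 values of 76 named genes under 25 settings, 1843 kept their sign and their side of the threshold, 2 passed it (the DESeq2 calls), 37 turned sign at an unadjusted p of 0.05 or more, and 5 turned sign with the mitochondrial share as a covariate, to 0.017 for mt-Atp8, 0.0041 for mt-Co1, 0.0216 for mt-Nd1, 0.0023 for mt-Nd5 and 0.0876 for mt-Nd6. The share is itself made of the counts of mitochondrially encoded genes, so that fit takes out most of their difference by construction. Nothing is read from those 5 turns of sign. Reg3g turned sign in 8 settings, among them -3.84 without 1.0% replicate 1. Settings added after seeing the data were the mitochondrial share as a covariate and leaving out mitochondrially encoded genes or the 6 libraries high in small intestinal markers. Unless a value shows it, the cause was not tested. No paired analysis was possible because the replicate numbers follow accession order and no animal number is shared between diets. With 5 animals a diet, genes of low or uneven counts have wide intervals.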

Other observations

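Several other gene groups, out of 43 lists with a median, had more members on one side of 0, without a call. Of all genes 52% were above 0. Lists not followed further here also leaned, such as T cell and innate lymphocyte genes (15 of 19 above 0). Of 20 fibroblast and matrix genes 14 were below 0. Of 15 genes of p53 and its targets, 13 were below 0 and 2 above, with a median of -0.11 against 0.01 over all genes; Trp53, the factor itself, differed by -0.20 ± 0.09, and Ccng1, a cyclin it induces, by -0.21 ± 0.09, with every 1.0% library lower than every 0.5% library. Of 25 junction genes 19 were below 0, with a median of -0.07. Scaled by library totals, which moved the median of all genes to 0.13, the medians were 0.0085 for the p53 list and 0.05 for the junction list, so their sign turned while staying below that of all genes. Of 25 proliferation genes 19 were above 0, with a median of 0.09 (0.03 without 1.0% replicate 4). Of 16 tested genes of enteric neurons and glia 14 were above 0, with a median of 0.11, which turned to -0.02 without 1.0% replicate 3, the library with the highest sum of these genes. Of 15 goblet cell genes 12 were above 0, among them Retnlb, an antimicrobial protein of goblet cells, which had 25.3, 23.7, 22.3, 27.4 and 37.1 CPM at 1.0%, against 21.8, 15.9, 14.6, 21.7 and 20.6 CPM at 0.5%. Without the 3 animals numbered above 70, 7 of the 15 were above 0.

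Among the 20 tested genes of the ARF family and its exchange factors, which holds Arl4d, 8 were above 0 and 12 below, with a median of -0.04. Its relative Arl4c differed by 0.33 ± 0.14. All 23 tested genes of cholesterol synthesis and uptake had a 95% interval within 2-fold, with 10 above 0 and 13 below, and of 26 interferon-stimulated genes 13 were above 0 and 13 below.

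The difference between 2.5% and 0%, which shares no library with the one described, had 17 genes called by edgeR. Across the 15652 genes, which are not independent, its log2 differences had a Pearson correlation of -0.16 and a Spearman correlation of -0.21 with those of 1.0% minus 0.5%, and 41.4% of genes had the same sign in both.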
